A study of Mus musculus with 4 samples.

Results

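The expression of 10 transcription factors of skeletal cells, Runx1, Runx2, Runx3, Sp7, Dlx5, Sox9, Scx, Ebf3, Foxc1 and Prrx1, was described in single cells of mouse bone and marrow. The genes were taken by name from the 32285 genes of the matrix, and each had 1 row in both libraries. Femur and tibia cells came from 1 young mouse of 6 months and 1 old mouse of 24 months. Both were INK-ATTAC, a transgenic line in which a fragment of the p16 promoter drives an inducible caspase, and neither was treated; the labels used here give no strain or sex. Digested bone and digested marrow were combined, lineage-marked blood cells were depleted on magnets, live CD45- cells were sorted, and a tagged CD24 antibody was read beside the 3′ ends of the mRNA of each cell (CITE-seq).

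Of 11371 young and 6729 old barcodes, 10063 and 5607 had at least 200 genes and at most 20% mitochondrial UMIs (unique molecules counted), and 25 barcodes occurred in both libraries. These cells held 81076421 and 66702846 UMIs, with a median of 6385 and 9711 per cell, so the old library was the deeper one. Each cell was put in a group by the UMIs of fixed marker lists, none of which held any of the 10 factors or a factor of their families. In all, 8526 young and 4494 old cells fell in 8 mesenchymal groups and 1115 and 773 in blood groups, led by the erythroid one, and the others had mixed markers, too few markers or those of another tissue. A group is called here by its list (stromal, early osteoblast and so on), which says that its cells carry those markers and no more. Ptprc, which encodes CD45, stood at 3.48 and 4.16 CPM in the mesenchymal cells against 58.7 and 120 CPM in the blood cells, where CPM is the UMIs of a gene scaled to 1000000 UMIs of the group.

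Runx2 is required for osteoblast formation, and Sp7 (osterix) acts downstream of it and is needed for osteoblast maturation. Dlx5 is a homeobox factor of the same programme, Sox9 is the master factor of cartilage and Scx (scleraxis) the factor of tendon and ligament. Ebf3 and Foxc1 maintain the Cxcl12-abundant, Lepr-expressing stromal cells of the marrow niche, Prrx1 marks limb mesenchyme, and Runx1 and Runx3, the relatives of Runx2, are best known from blood cells, with Runx3 also acting in maturing cartilage.

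RUNX proteins bind the short DNA motif ACCACA, and the genes of the RUNX family carry it in their own promoters. It is shown because the 3 family members in this set share 1 arrangement of it next to a start of transcription. RefSeq promoters (build GRCm38.p6, 250 bases before to 50 after each start) were used for 6 of the 10 factors, as 8 promoters. Those of Sp7, Dlx5, Sox9 and Scx were not used here. In the windows below, 30 bases each and written 5′ to 3′ on the strand of the gene, capitals mark each ACCACA.
Runx1, chr16:92826025-92826054, minus strand: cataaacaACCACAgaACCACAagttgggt
Runx2, chr17:44814583-44814612, minus strand: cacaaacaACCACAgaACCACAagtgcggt
Runx3, chr4:135120503-135120532, plus strand: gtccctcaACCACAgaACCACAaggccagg
The tandem ACCACAGAACCACA began 28 bases after the start site in Runx1, 23 bases after it in Runx2 and 134 bases before it in Runx3. The Runx1 and Runx2 windows thus lie in the transcribed 5′ end of the gene and the Runx3 window upstream of the gene. Searched on both strands, it was found in 4 of 32851 mouse promoters, namely these 3 and that of Gm16225, whose window overlaps the Runx3 one. A single ACCACA on either strand was in 16.8% of all promoters. Among the other entries Foxc1 held 1 match, and Ebf3, Prrx1 and the second promoters of Runx1 and Runx3 held none. UMIs were counted per gene, so they do not tell from which promoter a transcript came.

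All 10 factors were detected in both mice, and Runx1 was found in the most cells. Runx1 (ENSMUSG00000022952, chr16:92601466-92826074) had 37811 young and 26630 old UMIs in 72.7% and 74.9% of the kept cells. Prrx1 (ENSMUSG00000026586, chr1:163245119-163315145) followed with 69.4% and 69.1%. At the low end Scx (ENSMUSG00000034161, chr15:76457411-76459468) had 1097 and 926 UMIs in 5.99% and 6.58% of cells. The mesenchymal groups held 95.1% to 99.0% of the UMIs of 9 factors in both mice. Runx3 (ENSMUSG00000070691, chr4:135120645-135177990) was the exception, with 68.0% of its young and 73.5% of its old UMIs in them. Over all genes the mesenchymal groups held 62656942 of 81076421 young and 50535029 of 66702846 old UMIs. Since 3′ UMIs of different genes are captured unequally, levels are compared here between groups within a gene and not between genes.

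**Figure D1:**
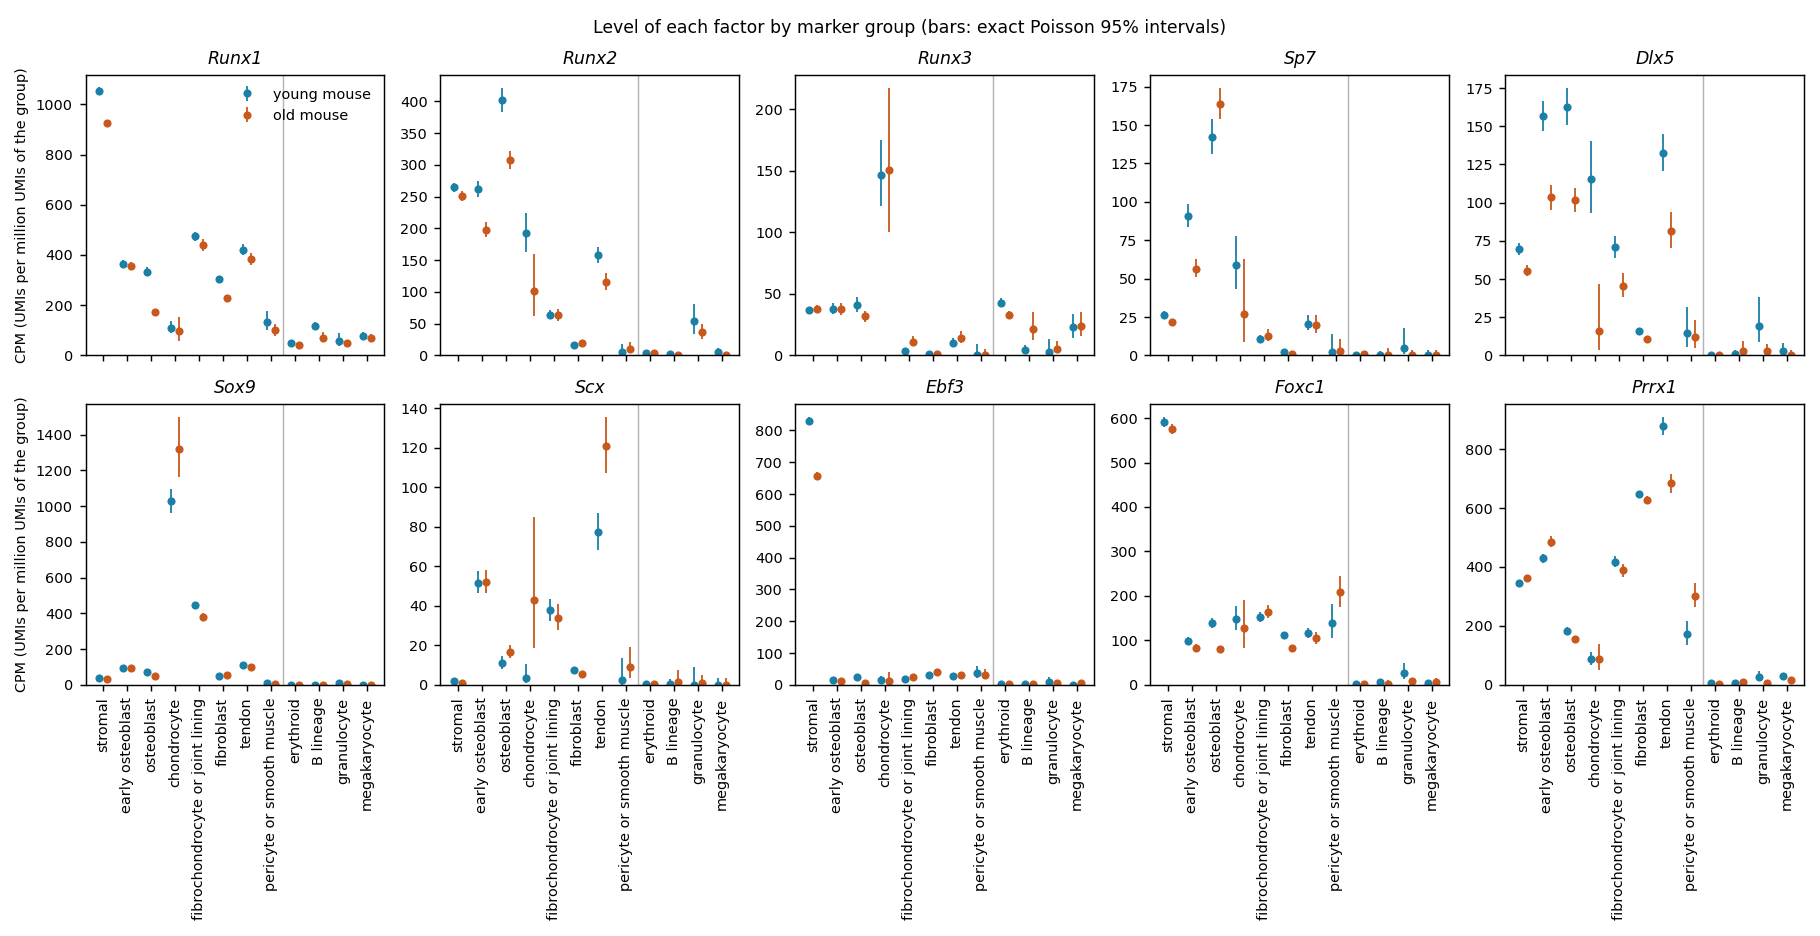
Level of each factor, in CPM on the y axes (which differ between panels), in the 8 mesenchymal groups and, right of the grey line, 4 blood groups, in the young (blue) and the old (orange) mouse; points are the scaled UMIs and bars are exact Poisson 95% intervals, which cover counting error only. Ebf3 stands at 829 and 656 CPM in the stromal group and at or below 39.8 CPM in every other mesenchymal group, while Prrx1 is spread over the mesenchymal groups.

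For Dlx5 the highest mesenchymal groups overlapped, and for each other factor the highest group lay above the next one in both mice. How often this holds over all genes was not counted, so the order of the groups is given as a description. Differences between groups were tested with edgeR's quasi-likelihood test on UMIs summed per mouse and group, with the mouse as a block and Benjamini-Hochberg adjustment over 13903 genes. This was done for the 7 mesenchymal groups with at least 20 cells in both mice, each set against the mean of the log2 levels of the others. Each group therefore had 2 sums, and these come from mice that also differ in age. The chondrocyte group, with 83 young and 12 old cells, is described without a test. Runx3 had no UMI in the pericyte or smooth muscle sums of either mouse, and its mean over groups then rests on the fit's prior count. The Runx3 differences that follow are therefore from the same fit without that group, while counts and medians over the 10 factors are from the fit of all 7 groups.

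The stromal group was the group of Ebf3, Foxc1 and Runx1. Ebf3 (ENSMUSG00000010476, chr7:137193671-137322805) was at 829 CPM in the young and 656 CPM in the old mouse. Its next group, fibroblasts, had 30.1 and 39.8 CPM, so that the stromal mean was 21.3 times as high. The log2 difference to the other groups was 4.82 (SE 0.19, edgeR adjusted p = 6.10e-09). Ebf3 was thus the factor most confined to 1 group among the 10 by this ratio.

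Foxc1 (ENSMUSG00000050295, chr13:31806646-31810635) was at 591 and 575 CPM in stromal cells. Elsewhere it lay between 80.8 and 209 CPM, so it was present in every mesenchymal group at a lower level. Its difference was 2.10 (SE 0.12, edgeR adjusted p = 1.53e-07). Runx1, known as a blood factor, reached 1053 and 925 CPM in the stromal group against 474 and 440 CPM in the fibrochondrocyte or joint lining group, the next in order. The difference was 1.63 (SE 0.11, edgeR adjusted p = 4.16e-07).

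Runx2 was higher in stromal cells as well, by 1.73 (SE 0.12), and Runx3 by 1.65 (SE 0.18) in the fit without pericytes or smooth muscle cells. In that fit Runx2 was higher by 1.11 (SE 0.11). Scx fell by 4.11 on the log2 scale, with 2.11 and 0.67 CPM from 43 and 12 UMIs, and Sox9 fell by 1.12. In all, 5 of the 10 factors were higher and 2 lower, where 28% of all genes were called higher and 20.4% lower. The median log2 difference of the 10 was 1.05, against 0.072 over all genes. Sp7 (0.48), Dlx5 (0.11) and Prrx1 (-0.34) did not pass. Without the pericyte or smooth muscle group Dlx5 turned to -0.29 (edgeR adjusted p = 0.0124), Prrx1 was at -0.49 (adjusted p = 0.00140) and Sp7 at -0.023 (0.937).

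Of 42 other skeletal factors listed beside these, 41 were tested, and 15 were higher and 17 lower in the stromal group (median -0.26). Pparg and Cebpa, both adipogenic regulators, were higher by 4.14 (33.8 and 54.9 CPM) and 3.24 (150 and 155 CPM), Snai2 was higher by 2.59 and Sox6, a partner of Sox9, lower by 2.88.

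Sp7 and Runx2 were highest in the osteoblast group, which had been chosen by Bglap, Ibsp, Dmp1 and other matrix genes. Sp7 (ENSMUSG00000060284, chr15:102356603-102367035) was at 142 CPM in the young and 164 CPM in the old mouse, against 90.8 and 56.5 CPM in the early osteoblast group. Both mice kept that order, and the stromal level was 26.3 and 21.6 CPM. Against all other groups Sp7 was higher by 3.96 (SE 0.16, edgeR adjusted p = 2.61e-08).

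Runx2 (ENSMUSG00000039153, chr17:44495987-44814797) was at 402 and 308 CPM in osteoblasts, and the stromal group came next with 265 and 251 CPM, overlapping the early osteoblasts at 262 and 198 CPM. Its difference in osteoblasts was 2.58 (SE 0.11, edgeR adjusted p = 4.11e-08), and 1.98 (SE 0.10) without the pericyte or smooth muscle group. In these cells the osteoblast master factor was thus found well beyond the osteoblast groups, at 158 and 116 CPM in tendon cells and 192 and 102 CPM in chondrocytes. Fibroblasts, at 16.5 and 19.8 CPM, and pericytes or smooth muscle cells, with 2 and 7 UMIs, had little of it. The osteoblast markers summed to 7060 and 4639 CPM in the stromal and 2525 and 1696 CPM in the tendon group. The early osteoblast markers summed to 3412 and 4150 CPM in the tendon group. The part of these markers in the Runx2 levels was not tested.

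Dlx5 (ENSMUSG00000029755, chr6:6877801-6882068) did not separate the osteoblast groups from each other. It was at 163 and 102 CPM in osteoblasts, 157 and 103 CPM in early osteoblasts and 132 and 81.4 CPM in tendon cells, and each of these overlapped the next. It was higher in osteoblasts by 1.67 (SE 0.080, edgeR adjusted p = 7.33e-08). Runx3 was higher there by 1.92 (SE 0.21), with 41.0 and 31.7 CPM.

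Of the 10 factors 4 were higher and 3 lower in osteoblasts, where 17.7% of all genes were called higher and 14.5% lower. The median difference of the 10 was 0.10, with 0.034 over all genes. The lower ones were Ebf3 (-1.51), Prrx1 (-1.25, 183 and 156 CPM) and Runx1 (-0.39). Sox9 (0.13), Scx (0.078) and Foxc1 (-0.42) did not pass. Without the pericyte or smooth muscle group Sox9 (-0.48, edgeR adjusted p = 0.00229) and Foxc1 (-0.40, adjusted p = 0.0393) were called lower. The Runx1 call did not hold without Scrublet doublets (edgeR adjusted p = 0.0504), without the mouse block (adjusted p = 0.167) or at equal depth (-0.058, adjusted p = 0.992). Of the other factors 10 were higher and 19 lower, with Dlx3 (3.91, 37.7 and 50.6 CPM), a homeobox regulator of osteoblast maturation, among the higher ones, and on the low side Ebf2 (-4.14, 13 and 7 UMIs) and Twist2 (-3.81, 4 and 3 UMIs).

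Early osteoblasts, chosen by Tnn, Ostn, Postn, Aspn and Cthrc1, shared Sp7, Runx2 and Dlx5 and added Scx. Scx was at 51.6 and 51.8 CPM there, second only to tendon cells, and 11.1 and 16.6 CPM in osteoblasts. The tendon markers summed to 1852 and 2168 CPM in early osteoblasts, and their part in the Scx level was not tested. Scx was higher in early osteoblasts by 2.09 (SE 0.24, edgeR adjusted p = 1.66e-04). Sp7 was higher by 2.54, Runx2 by 1.70, Dlx5 by 1.49 and Runx3 by 1.84. In the fit without pericytes or smooth muscle cells, which gave the Runx3 value, Runx2 was higher by 1.07. Ebf3 (-1.70) and Foxc1 (-0.85) were lower, and Runx1 (0.11) and Prrx1 (0.27) did not pass. Thus 6 of the 10 factors were higher and 2 lower, where 11.3% and 5.91% of all genes were called. Their median was 1.10, with 0.021 over all genes. The sixth, Sox9 (0.71), was not called without the pericyte or smooth muscle group (0.11, edgeR adjusted p = 0.421). A second list scored over 0.8 of the first in 22.1% of the young and 31.1% of the old early osteoblasts. Of the other factors 11 were higher and 8 lower, with Dlx6 (2.42) and Prrx2 (2.33), relatives of Dlx5 and Prrx1, at the head, Cbfb (1.34), the partner of the RUNX proteins, behind them and Pparg (-2.25) lower.

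Set directly against each other, the 2 osteoblast groups differed in Sp7 and Runx2, which were higher in the osteoblast group, and in Scx, Prrx1 and Sox9, which were lower. These are 2 and 3 of the 10, where 8.65% of all genes were called higher and 11.3% lower. The median of the 10 was 0.11, with 0.0049 over all genes. Sp7 was higher by 1.22 (SE 0.21, edgeR adjusted p = 0.00171) and Runx2 by 0.76 (SE 0.15, adjusted p = 0.00539). Scx was lower (-1.73, SE 0.33, edgeR adjusted p = 0.00386), as were Prrx1 (-1.30, SE 0.18, adjusted p = 4.82e-04) and Sox9 (-0.50, adjusted p = 0.0233). Dlx5, at 0.15 with an SE of 0.10, did not pass, nor did Runx1 (-0.43), Runx3 (0.067), Ebf3 (0.16) and Foxc1 (0.37). Prrx1 stood at 429 and 486 CPM in early osteoblasts against 183 and 156 CPM in osteoblasts, with no overlap. The Sox9 call was lost without the block (adjusted p = 0.0587) and at equal depth (adjusted p = 0.358). Among the other factors 5 were higher and 15 lower, Dlx3 (4.25) higher, and Twist2 (-2.96) and Ebf2 (-2.95) lower.

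Sox9 (ENSMUSG00000000567, chr11:112782210-112787757) was the factor of the cartilage-like groups. In chondrocytes it reached 1026 CPM in the young and 1321 CPM in the old mouse, from 855 and 246 UMIs. The fibrochondrocyte or joint lining group, chosen by Prg4, Cytl1, Cilp2, Chad and Cilp, had 446 and 382 CPM, and every other mesenchymal group lay at or below 109 CPM. Its difference in the fibrochondrocyte or joint lining group was 3.30 (SE 0.091, edgeR adjusted p = 3.12e-09).

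Scx was higher in that group too, by 1.60 (SE 0.28, 37.6 and 33.7 CPM), and Runx1 by 0.62, a call not made without the pericyte or smooth muscle group (0.32, edgeR adjusted p = 0.0981). In all, 3 of the 10 factors were higher and 0 lower, where 11.9% and 5.55% of all genes were called, and the median was 0.23 against 0.026 over all genes. Dlx5 (0.25), Ebf3 (-0.80), Foxc1 (0.20) and Prrx1 (0.18) did not pass. Without the pericyte or smooth muscle group 5 factors passed, with Runx2 (-1.02), Runx3 (-1.02, adjusted p = 0.0492) and Sp7 (-1.02) lower. Of the other factors 13 were higher and 2 lower, among them the Sox9 partners Sox5 (2.09, 149 and 164 CPM) and Sox6 (1.69), and Osr2 (1.83) and Barx1 (1.72), regulators of joint and connective tissue.

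Runx3 had its highest mesenchymal level in chondrocytes, 146 and 150 CPM from 122 and 28 UMIs, 3.94 times the mean of the next group. Its level in early osteoblasts, stromal cells and osteoblasts overlapped, between 31.7 and 41.0 CPM, and fibroblasts had 0.84 and 1.52 CPM. In pericytes or smooth muscle cells it was 0 of 408335 young and 0 of 680774 old UMIs, which allows up to 7.35 and 4.41 CPM at a floor of 3 counts. Runx2 and Sp7 were present in chondrocytes as well, Sp7 at 58.8 and 26.8 CPM from 49 and 5 UMIs. The chondrocyte group also carried the osteoblast markers, whose 8 genes summed to 11309 and 11732 CPM there beside 19097 and 20001 CPM for its own 8, and their part in these levels was not tested.

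Scx and Prrx1 were highest in the tendon group, chosen by Tnmd, Kera, Thbs4 and Fmod. Scx was at 77.2 and 121 CPM, higher by 3.15 (SE 0.24, edgeR adjusted p = 1.00e-05). Prrx1 was at 877 and 683 CPM, higher by 1.15 (SE 0.12, edgeR adjusted p = 1.18e-04), and Dlx5 was higher by 1.14 (SE 0.088, adjusted p = 1.09e-05). In all, 5 factors were higher and 1, Foxc1 (-0.55), lower, where 9.61% and 3.78% of all genes were called. The median was 0.83, with 0.012 over all genes. Runx1 (0.27), Runx3 (-0.20), Sp7 (0.35) and Ebf3 (-0.49) did not pass. The calls of Runx2 (0.81) and Sox9 (0.86) were not made without the pericyte or smooth muscle group (0.16 and 0.26). That of Foxc1 was not made without Scrublet doublets (edgeR adjusted p = 0.0548) or without the block (adjusted p = 0.0670). In 36.3% of young and 36.6% of old tendon cells a second list scored over 0.8 of the first. Of the other factors 10 were higher and 7 lower, Mkx, a tendon homeobox gene (2.36), and Prrx2 (2.28) higher, and Dlx3 (-2.91, 3 and 2 UMIs) and Pparg (-2.66, 1 and 3 UMIs) lower.

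Fibroblasts, chosen by Pi16, Clec3b, Dpt and other genes, had much Prrx1 and low levels of the osteoblast factors. Prrx1 was at 647 and 627 CPM, higher by 0.85 (SE 0.12, edgeR adjusted p = 3.59e-04). Sp7 (-3.83, 1.96 and 1.23 CPM), Runx2 (-2.55) and Dlx5 (-2.31, 16.2 and 10.6 CPM) were lower. Thus 1 factor was higher and 6 lower, where 17.6% and 10.9% of all genes were called. The median of the 10 was -1.02, with 0.023 over all genes. Sox9 (-0.27) and Ebf3 (-0.11) did not pass in the fit with all groups. Scx (-1.33), Foxc1 (-0.72) and Runx1 (-0.40) were the other lower ones, and the Runx1 call did not hold without the block (edgeR adjusted p = 0.151), without Scrublet doublets (0.0591) or with a 10% mitochondrial limit (0.0584), and that of Scx not with the stricter gate (0.0855). Runx3 and Sox9, not called in the fit with all groups, were lower without the pericyte or smooth muscle group. Runx3 was then at -4.20 and Sox9 at -0.89 (edgeR adjusted p = 4.56e-05). Of the other factors 14 were higher and 11 lower, Ebf2 (2.92, 128 and 151 CPM) and Osr2 (2.73) higher, Dlx6 (-3.20) and Msx2 (3 UMIs in all) lower.

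Pericytes or smooth muscle cells, 79 in each mouse, had Foxc1 at 140 and 209 CPM and Prrx1 at 171 and 303 CPM but few UMIs of most other factors. Runx1 (-1.85, 135 and 99.9 CPM), Runx2 (-3.93), Sox9 (-3.62, 5 and 3 UMIs), Dlx5 (-2.36, 6 and 8 UMIs) and Prrx1 (-0.86) were lower there. Foxc1 (0.24), Ebf3 (-0.21) and Scx (-1.48, 1 and 6 UMIs) did not pass. Sp7, with 1 and 2 UMIs, is at the floor and given no fold. Counting Sp7 and Runx3, 7 of the 10 factors were called lower and 0 higher, where 12.4% and 12.9% of all genes were, and the median was -2.11 against -0.17 over all genes. The fibrochondrocyte or joint lining markers summed to 41.6 CPM in the young and 5066 CPM in the old cells of this group, and their part in these values was not tested. Of the other factors 10 were higher and 13 lower, Cebpb (2.71, 1971 and 1623 CPM) and Pparg (3.15, 12 and 13 UMIs) higher and Prrx2 (-3.54) lower. Msx2, counted among the higher ones, had 2 UMIs in each mouse. That is under the floor of 3 counts, and its direction is not read here.

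**Figure D2:**
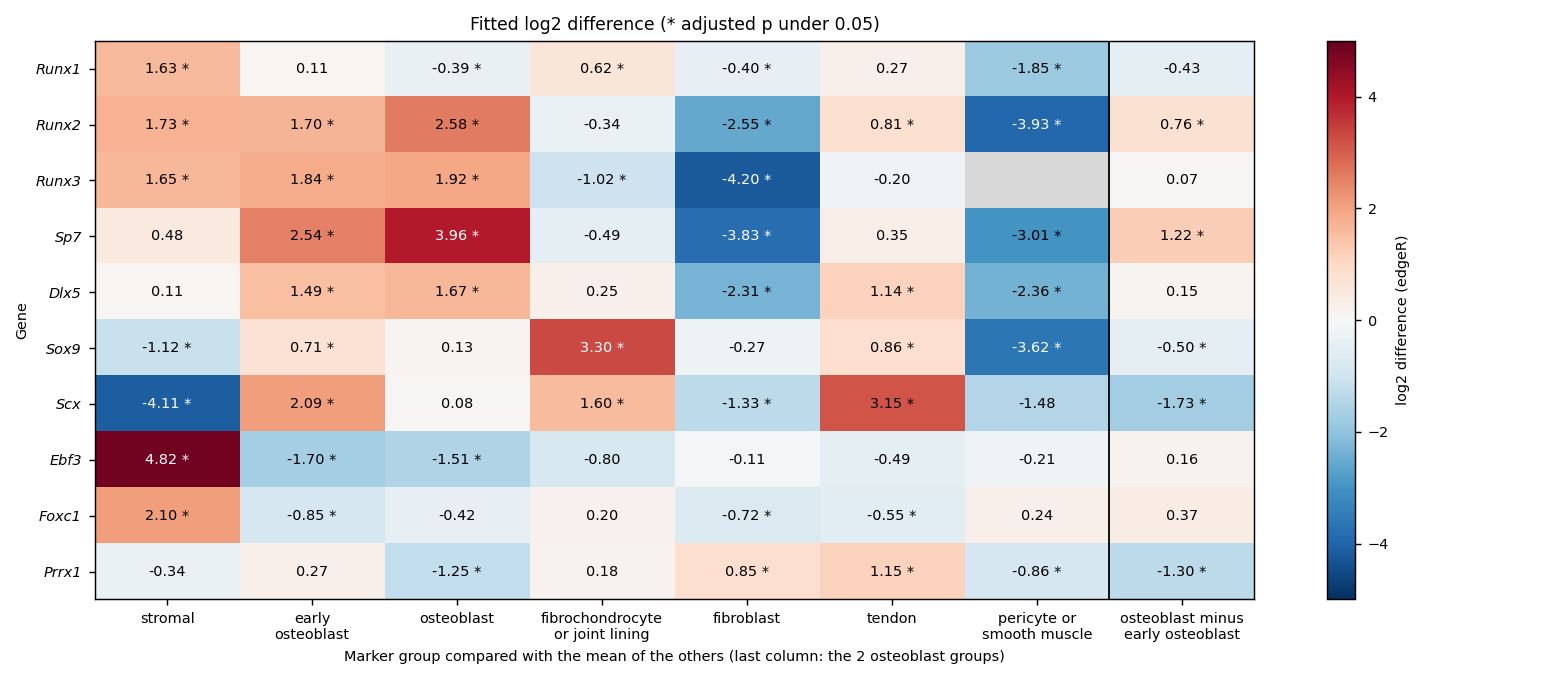
Fitted log2 difference of each factor (rows) between 1 marker group and the mean of the others (first 7 columns) and between the osteoblast and the early osteoblast group (last column), with colour running from -5 (blue) to 5 (red) and a star at an edgeR adjusted p under 0.05. The Runx3 row is from the fit without the pericyte or smooth muscle group, whose cell is grey; Ebf3 peaks at 4.82 in the stromal column, Sp7 at 3.96 in the osteoblast column and Sox9 at 3.30 in the fibrochondrocyte or joint lining column.

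Over the 15 mesenchymal sums with at least 20 cells, the log2 levels of Runx2 and Runx3 correlated with a Pearson r of 0.93, Sp7 and Dlx5 with 0.92, Runx2 with Sp7 and with Dlx5 at 0.91 each, and Ebf3 with Foxc1 at 0.90. Scx and Foxc1 went opposite ways (-0.61), as did Scx and Ebf3 (-0.60). These sums are of 8 groups in 2 mice, share library and depth within a mouse, and the correlations are given as a description. The chondrocyte group enters here only with the young mouse.

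Among 11715 genes with at least 500 UMIs, the genes whose log2(CPM + 1) followed each factor most closely over all 23 sums, blood included, were taken 3 for each factor. For Ebf3 they were Cebpa (r = 0.96), Cxcl12 (0.96) and Csmd1, and Cxcl12, the niche chemokine, is one of the stromal markers. For Sp7 they were Dlx6 (0.96), Galnt5 and Bglap (0.94), and Bglap, which encodes osteocalcin, is one of the osteoblast markers. Sox9 was followed by Comp (0.97), a cartilage matrix gene, Npr2 and Ecrg4, and Runx2 by Gpc1, Fgfr2 and Mmp13 (0.93), a collagenase of late cartilage and bone.

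Dlx5 was followed by Ptk7, Mpzl1 and Gpc1, Foxc1 by Tead1 (0.97), Zfp532 and Arhgap42, Prrx1 by Pmp22 (0.99), Mxra7 and Gulp1, and Runx1 by Cx3cl1, Ccn5 and Clmp. Scx had Mboat1, Ece2 and Gm15867. The weakest were the genes nearest to Runx3, Slc35g1, 1700113A16Rik and Cep41 at 0.77 to 0.75.

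In blood cells, which the sort had been meant to remove, 9 of the 10 factors were much lower in the sum and Runx3, through the erythroid cells, was not. The test compared the sum of all blood with the sum of all mesenchymal cells of each mouse, 4 sums in all, and called 9 factors lower and 1 higher, where 40% and 33.6% of 16101 genes were. The median of the 10 was -5.76, with -0.17 over all genes. Ebf3 had 2.28 and 2.21 CPM in blood against 287 and 251 CPM in mesenchymal cells and was lower (-6.68, SE 0.15, edgeR adjusted p = 6.93e-05). Sox9 (-6.52), Prrx1 (-6.03), Foxc1 (-6.02), Dlx5 (-5.77), Sp7 (-5.75), Scx (-5.34) and Runx2 (-4.66) were lower too. Runx2 was uneven among the blood groups, with 53.8 and 36.7 CPM in granulocytes (22 and 42 UMIs) against 3.53 and 3.21 CPM in erythroid cells. The 8 stromal markers summed to 1813 and 2111 CPM in granulocytes and 74.4 and 82.0 CPM in erythroid cells, and their part in the Runx2 level was not tested.

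Runx1 was lower as well (-3.12, SE 0.10), yet it was found in every blood group. It stood at 50.2 and 40.3 CPM in erythroid, 119 and 70.0 CPM in B lineage, 58.7 and 48.1 CPM in granulocyte and 76.5 and 68.5 CPM in megakaryocyte cells. Runx3 had 35.7 and 29 CPM in all blood cells against 21.9 and 24.3 CPM in all mesenchymal cells, 0.71 higher (SE 0.15, edgeR adjusted p = 0.0110). Of its blood UMIs 518 of 564 and 354 of 408 were in erythroid cells, at 42.5 and 32.5 CPM. It was at 22.7 and 24.1 CPM in megakaryocyte, 4.50 and 21.5 CPM in B lineage and 2.45 and 5.25 CPM in granulocyte cells. With every cell thinned to 2000 UMIs the difference between the sums was -0.097 (edgeR adjusted p = 0.780), and the call was not made. Of the 42 other factors 1 was higher and 37 lower, among the latter Barx1 (-7.33, 4 and 1 UMIs), Ebf2 (-7.08), Mkx (-6.85, 1 UMI in each mouse) and Msx2, which had no UMI in blood.

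Shares of cells with a UMI were compared after each cell was thinned to 2000 UMIs, which left out 770 young and 496 old cells. Erythroid cells, which should lack the mesenchymal factors, give the level of stray UMIs. There Ebf3 was found in 0.55% and 0.69%, Runx2 in 0.73% and 0.92%, Foxc1 in 0.92% and 0.46% and Prrx1 in 1.47% and 0% of cells. In stromal cells Ebf3 was found in 74.0% and 67.0%, Foxc1 in 66.3% and 62.9% and Runx1 in 80.5% and 77.8%. Runx2 was found in 54.7% and 49.3% of osteoblasts, Sp7 in 23.8% and 26.6% of them and Sox9 in 34.0% and 33.6% of fibrochondrocyte or joint lining cells. Scx was found in 11.1% and 23.9% of tendon cells and in 0.23% and 0.053% of stromal cells. At this depth the stromal shares do not stand above its 0% and 0.23% in erythroid cells.

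How many of the factors a cell held differed between the groups. At 2000 UMIs a stromal cell held on average 3.37 and 3.2 of the 10 (young and old mouse), an osteoblast 2.35 and 1.97, a fibroblast 1.37 and 1.34 and an erythroid cell 0.22 and 0.16. At least 2 were found in 92.4% and 89.99% of stromal cells, 72.6% and 62.1% of osteoblasts, 40.7% and 39.96% of fibroblasts, 19.2% and 25.3% of pericytes or smooth muscle cells and 2.02% and 0.92% of erythroid cells. The most found in 1 cell was 8, in a stromal cell of the young mouse.

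Whether 2 factors met in the same cells more often than their frequencies give was described by the odds ratio within a group at equal depth, for pairs with at least 5 cells expected in both mice. Of 139 such pairs 53 had an odds ratio above 1 in both mice, 28 below 1 in both and 58 were split, with medians of 1.07 and 1.09 and a range of 0.142 to 5.32. With all UMIs of each cell the medians were 1.59 and 1.73. Cells are not replicates, so no test was made.

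In stromal cells Ebf3 and Foxc1 were found together in 1594 young cells where 1491 were expected, and in 873 old cells where 801 were, odds ratios of 2.14 and 2.06. Runx1 and Ebf3 had 1.93 and 2.54, Runx2 and Ebf3 1.82 and 1.56, and Runx1 and Foxc1 1.36 and 1.93. Sox9 went the other way, with 0.60 and 0.56 for Ebf3 and 0.66 and 0.53 for Foxc1. The stromal cells with a Sox9 UMI, 5.2% and 4.7% of the group, thus held the 2 niche factors less often in both mice.

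In osteoblasts Runx2 met Dlx5 with 1.89 and 1.61, Foxc1 with 1.86 and 1.58 and Runx1 with 1.53 and 2.26. With Sp7, its partner in the osteoblast programme, the odds ratio was 1.28 and 1.10, from 76 cells (70.1 expected) and 50 cells (48.3 expected). Runx2 and Scx were found together less often than expected in early osteoblasts (0.49 and 0.66) and in tendon cells (0.39 and 0.44, 7 and 5 cells). In fibrochondrocyte or joint lining cells Sox9 and Prrx1 had 0.58 and 0.45 and Sox9 and Foxc1 1.66 and 1.74.

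**Figure D3:**
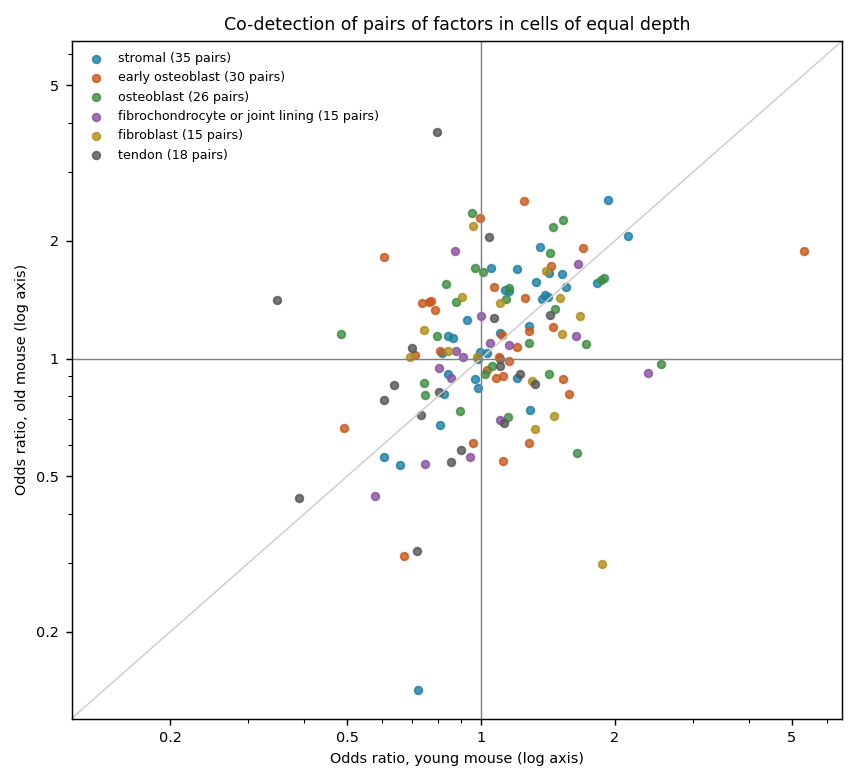
Odds ratio of finding 2 factors in the same cell, in the young mouse (x axis) against the old mouse (y axis), both on log axes, for 139 pairs within 6 marker groups, every cell thinned to 2000 UMIs; grey lines mark 1 and equality. Points crowd around 1, with 53 above 1 on both axes and 28 below 1 on both.

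CD24, the surface protein the study followed, was read by antibody, and a cell was called CD24+ above 318 antibody UMIs (young library) or 403 (old library). This gave 682 of 8526 and 232 of 4494 mesenchymal cells. All 10 factors differed between CD24+ and CD24- mesenchymal cells summed per mouse, 6 higher and 4 lower, where 6.42% and 6.23% of 15394 genes were called. Sox9 was higher by 1.49 (SE 0.099, edgeR adjusted p = 5.13e-05), Sp7 by 1.26, Scx by 0.88, Dlx5 by 0.79, Runx3 by 0.76 and Runx2 by 0.49. Ebf3 (-1.03), Runx1 (-0.49), Prrx1 (-0.47) and Foxc1 (-0.36) were lower. Of the 42 other factors 12 were higher and 10 lower, with Sox6 (1.27), Sox8 (1.27) and Mef2c (1.04) higher and Twist2 (-0.94) lower.

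The groups that make up these sums differed as well. Osteoblasts and early osteoblasts were 38.4% of the CD24+ and 13.5% of the CD24- mesenchymal cells in the young mouse, and 46.1% and 15.5% in the old one. Within those 2 groups alone only Scx passed (0.69, edgeR adjusted p = 0.00245), Sp7 was at 0.28 (adjusted p = 0.331), Runx2 at 0.18 (0.573) and Foxc1 at 0.057 (0.957). Without the mouse block none of the 10 passed, with adjusted p from 0.0502 for Scx to 0.163 for Runx1. The mix of the 2 osteoblast groups differed too. In the young mouse 176 early osteoblasts and 86 osteoblasts were CD24+, and 558 and 502 were CD24-. In the old mouse these were 62 and 45, and 321 and 341. The log2 ratio of Scx in CD24+ to CD24- early osteoblasts was 0.62 (exact interval 0.29 to 0.94) young and 0.40 (-0.025 to 0.81) old. In osteoblasts it was 0.026 (-1.21 to 1.10) and 0.59 (-0.22 to 1.32). What part the makeup of the sums has, in all mesenchymal cells or within the 2 groups, was not tested.

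Within single groups the values are a description from 1 library each. Sox9 in the fibrochondrocyte or joint lining group was at 1007 CPM in 102 CD24+ cells and 307 CPM in CD24- cells of the young mouse, a log2 ratio of 1.71 (exact 95% interval 1.59 to 1.83). In the old mouse it was at 777 CPM in 28 CD24+ cells and 326 CPM in the others, 1.25 (1.06 to 1.45). Prrx1 went the other way in these cells, with ratios of -0.55 (-0.73 to -0.38) and -1.53 (-1.95 to -1.14), and so did Scx, at -0.94 (-1.65 to -0.29) in the young mouse, with 2 UMIs in CD24+ cells of the old one.

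Early osteoblasts that were CD24+ had more Sp7, 110 and 109 CPM against 82.3 and 47.0 CPM, and more Runx2, 309 and 268 CPM against 241 and 185 CPM. Runx3 was at 56.1 and 55.6 CPM against 29.8 and 34.3 CPM there, and Prrx1 at 310 and 363 CPM against 482 and 509 CPM. In the osteoblast group the intervals of Sp7, -0.19 (-0.51 to 0.12) and 0.17 (-0.09 to 0.43), and of Runx2, -0.11 (-0.29 to 0.07) and 0.07 (-0.12 to 0.26), held 0 in both mice.

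**Figure D4:**
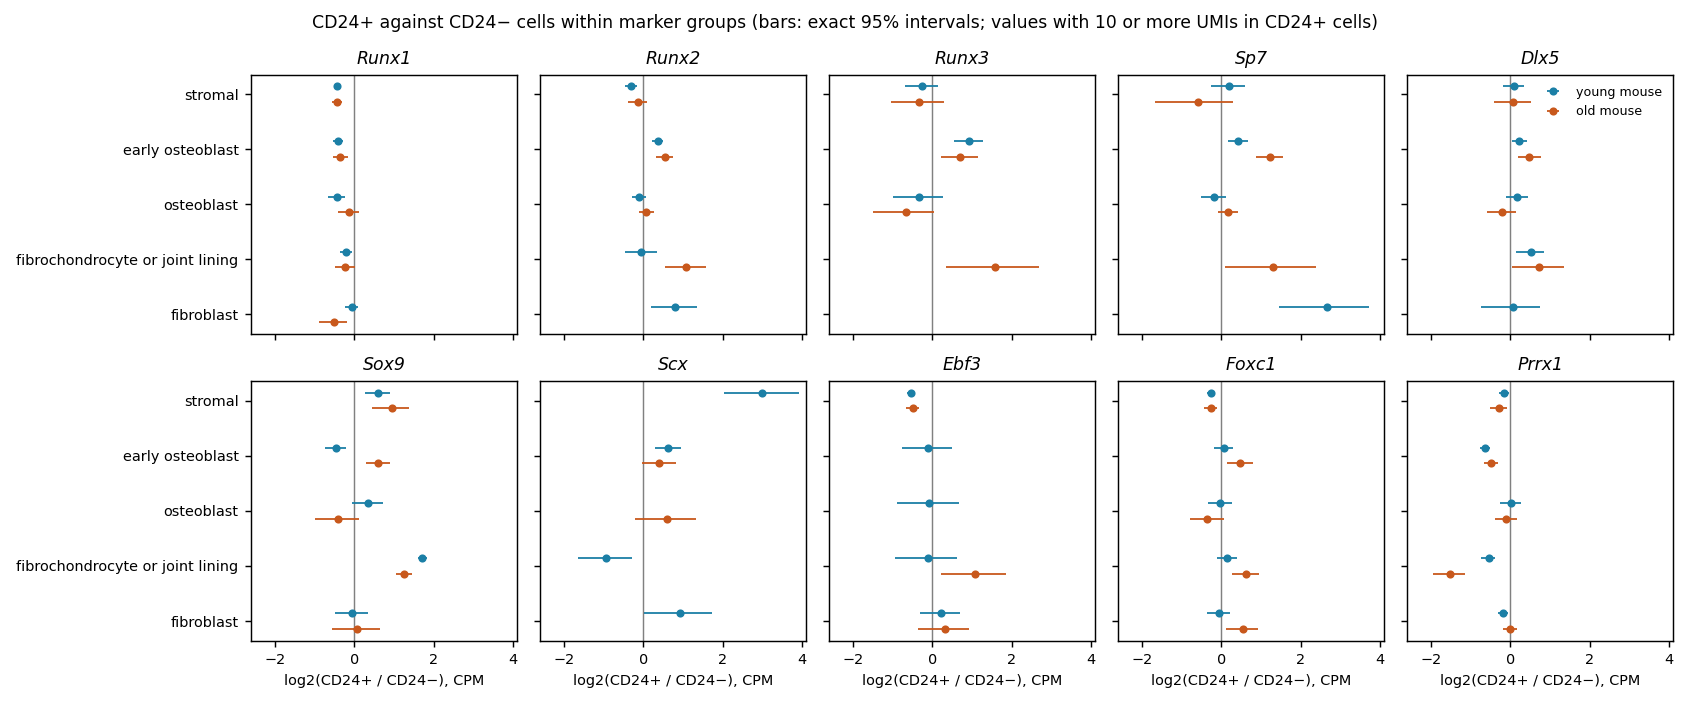
Log2 ratio of the level (CPM) in CD24+ to that in CD24- cells (x axes) for each factor in the 5 marker groups with at least 20 CD24+ cells in both mice (y axes), in the young (blue) and the old (orange) mouse; bars are exact 95% intervals for counting error only, and values from fewer than 10 UMIs in CD24+ cells are left out. Sox9 in the fibrochondrocyte or joint lining group, at 1.71 and 1.25, stands clear of 0 in both mice, and the osteoblast row of Runx2 lies at 0.

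Cells with both Runx2 and Sp7 were 1000 of 8526 young and 695 of 4494 old mesenchymal cells when all UMIs were used, and 193 and 84 of them, 19.3% and 12.1%, were CD24+. Cells with neither were CD24+ in 5.14% and 3.03%. The cells with both factors were deeper, with a median of 7906 and 12369 UMIs against 6217 and 9632. At equal depth the shares were 11.9% (exact 95% interval 7.90 to 16.9) and 10.4% (5.51 to 17.5) with both, 15.5% and 14.7% with Sp7 only, 10.5% and 6.44% with Runx2 only and 7.10% and 4.57% with neither. In the osteoblast group at equal depth the share was 13.2% (6.49 to 22.9) and 12% (4.53 to 24.3) with both and 12.04% (7.79 to 17.5) and 12.2% (7.29 to 18.9) with neither, which cannot be told apart at these cell numbers.

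Young and old were compared with 1 mouse each, so there is no test, and the exact intervals cover counting error only. In the sum of all mesenchymal cells none of the 10 factors differed by 2-fold or more, where 3.46% of 14939 genes with at least 50 UMIs did. The log2 ratios of old to young ran from -0.39 for Sox9 (101 and 77.2 CPM) to 0.23 for Sp7 (31.4 and 36.9 CPM). The makeup of these sums differed between the mice, with 83 young and 12 old chondrocytes and with osteoblasts as 5.84% of the young and 6.88% of the old kept cells, and its part in the ratios was not tested. Within chondrocytes Sox9 was at 0.36 (0.15 to 0.57), and Sp7 was lower in 5 of 7 groups.

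Dlx5 was lower in the old mouse in all 7 mesenchymal groups with at least 50 UMIs, and each interval lay below 0. It was 69.6 against 55.4 CPM in stromal cells (-0.33, -0.45 to -0.21), 157 against 103 CPM in early osteoblasts (-0.60, -0.74 to -0.45), and 132 against 81.4 CPM in tendon cells (-0.70, -0.95 to -0.46). The chondrocyte value of -2.84 (-5.14 to -1.25) comes from 96 and 3 UMIs. This direction was the same in all 7 groups with TMM scaling, at equal depth, with the 10% mitochondrial limit, without Scrublet doublets and with the stricter gate. Runx1 was lower in 8 of 8 groups, in 5 of them with an interval below 0, and in 7 of 8 at equal depth or without Scrublet doublets. All groups of a mouse come from the same library, so their agreement is not repeated evidence. How many of all genes were lower in every group was not counted.

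In the osteoblast group the median over all genes was itself shifted by -0.16, and the 8 markers of the group summed to 28562 CPM in the young and 41161 CPM in the old mouse, whose part in these values was not tested. Relative to that median Runx1 was at -0.78 (334 and 174 CPM), Foxc1 at -0.62, Dlx5 at -0.52, Sp7 at 0.37 (142 and 164 CPM) and Scx at 0.74 (11.1 and 16.6 CPM). Ebf3, with 102 and 42 UMIs, was at -1.64 (-2.20 to -1.11) relative to the median and -1.81 before, the only factor of the 10 past 2-fold there, where 4.85% of genes were. The stromal markers summed to 787 CPM in the young and 494 CPM in the old osteoblasts, and their part in the Ebf3 value was not tested.

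In stromal cells Scx had 43 young and 12 old UMIs, -1.66 (-2.72 to -0.71), the only one of the 10 past 2-fold (background 3.07%). Of the young Scx UMIs 18 lay in the 154 CD24+ cells. At equal depth the share of stromal cells with Scx, 0.23% and 0.053%, did not stand above that of erythroid cells. Ebf3 was 829 against 656 CPM in stromal cells, -0.34 (-0.37 to -0.30). In fibrochondrocyte or joint lining cells Runx3 was at 3.72 and 11.1 CPM from 19 and 34 UMIs, 1.58 (0.73 to 2.47), again the only one of the 10 past 2-fold (background 2.65%). The markers of chondrocytes, where Runx3 was highest, summed to 738 CPM in the young and 1817 CPM in the old cells of this group. Their part in the Runx3 value was not tested. In early osteoblasts none of the 10 passed 2-fold (background 3.27%), with Sp7 at -0.68 (-0.88 to -0.49) and Runx2 at -0.40 (-0.51 to -0.30). The group's own markers summed to 11683 CPM (young) and 8312 CPM (old), the osteoblast markers to 5849 and 4825 CPM and the fibroblast markers to 770 and 1517 CPM. Their part in these ratios, and in that of Dlx5 in this group, was not tested. No factor passed 2-fold in fibroblasts (9 with enough UMIs, background 2.54%), tendon cells (background 1.76%) and pericytes or smooth muscle cells (3 with enough UMIs, background 5.25%). In chondrocytes Dlx5 and Sp7, the latter at -1.13 (-2.82 to 0.19), were past it among 8 factors, where 14.9% of genes were. Scx in tendon cells, the group where it was highest, was at 77.2 CPM (young) and 121 CPM (old), 0.64 (0.40 to 0.89).

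**Figure D5:**
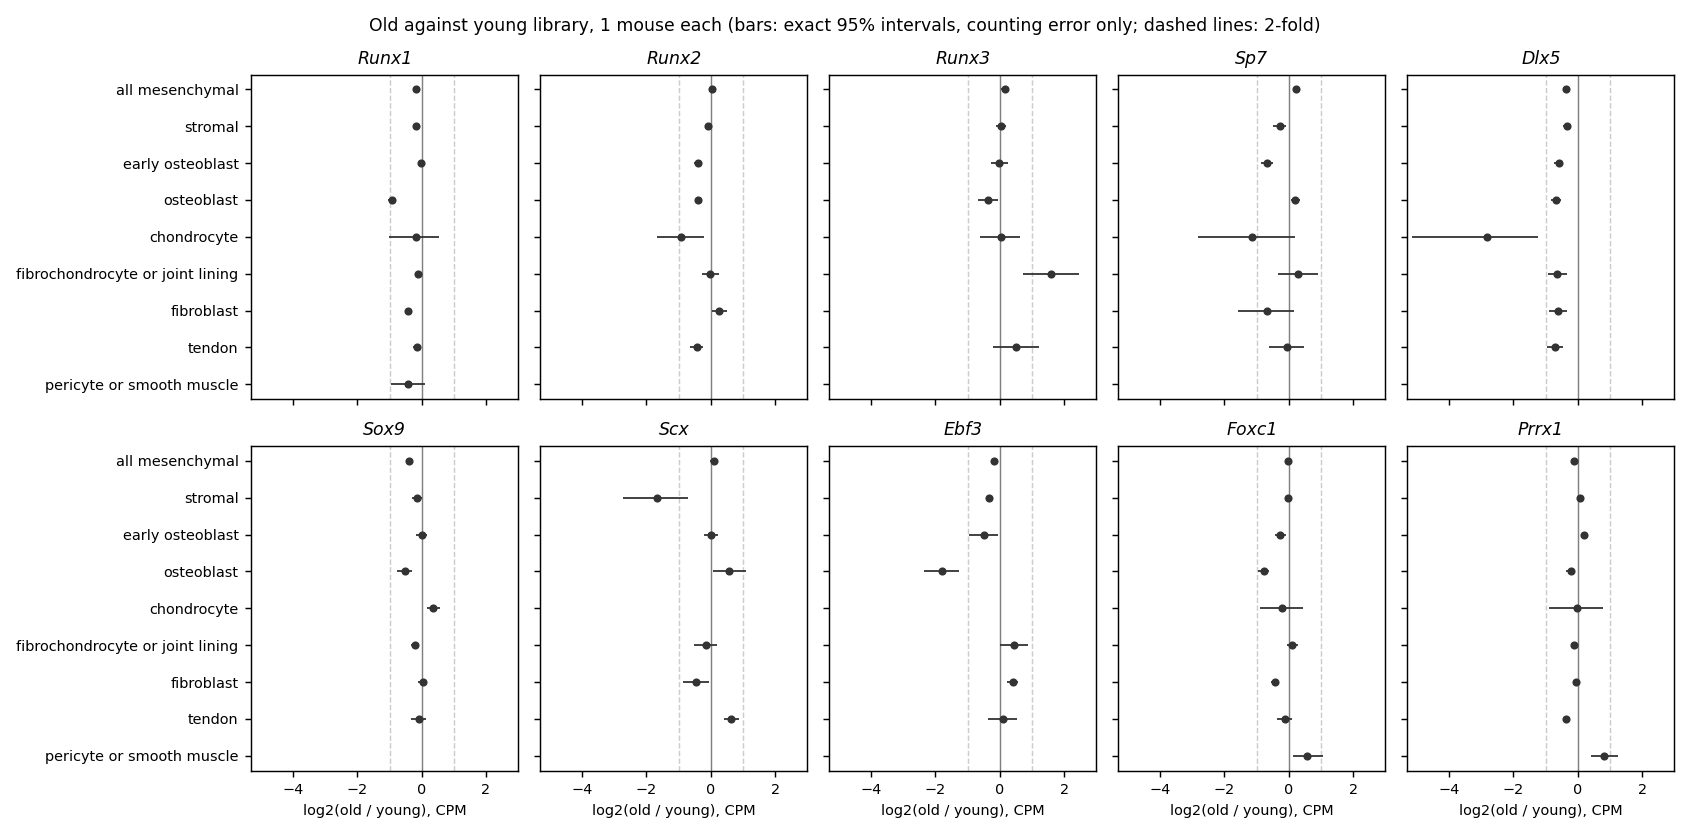
Log2 ratio of the level (CPM) in the old to that in the young library (x axes) for each factor in all mesenchymal cells and in each marker group (y axes), where at least 50 UMIs were found; bars are exact 95% intervals for counting error only and dashed lines mark 2-fold. Dlx5 lies left of 0 in every row, Ebf3 at -1.81 in osteoblasts and Runx3 at 1.58 in fibrochondrocyte or joint lining cells.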

How the data were processed

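The values are raw counts deposited by the authors, whole UMIs of 32285 genes and 1 antibody in each barcode, from Cell Ranger (6.1.1 per the file headers) on mm10; the submitters' processing notes also name R 4.0.3 and Seurat 4.0. There was 1 matrix for each of 2 mice, and the antibody library of a mouse is the antibody row of its matrix. The 10 genes, the marker lists and the tests were chosen with earlier results of these data known, and the limits of the gates were set on the files.

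Cells with at least 200 genes and at most 20% mitochondrial UMIs were kept. A cell went to the marker list (of 19) with the highest mean log(1 + UMIs per 10000), given at least 4 UMIs from at least 2 markers, and was called mixed where a list of another kind scored at least 0.5 of it. Scrublet (scanpy 1.11.5) called 269 young (2.67%) and 57 old (1.02%) cells doublets, which were kept in the main analysis. CD24+ cells lay above the Otsu threshold of log(1 + antibody count). Sums per mouse and group were tested in edgeR 4.0.16 (R 4.3.3; TMM, filterByExpr, quasi-likelihood, two-sided, Benjamini-Hochberg at 0.05), tested on simulated data first. Each SE was worked out as the absolute log2 difference divided by the square root of the F statistic of its test. The mouse was the block since the groups of 1 mouse come from the same animal. The p-values thus rest on how much the differences between groups varied between these 2 mice. With 1 mouse per age they do not measure the spread between mice of the same age. Ratios have exact binomial intervals, levels exact Poisson ones and shares Clopper-Pearson ones, at 95%, for counting error only. DESeq2 1.42.0, DESeq2 size factors, no low-count filter, no block, equal depth, a 10% mitochondrial limit, doublet removal, a stricter gate (8 UMIs) and, chosen after seeing the data, a fit with chondrocytes and one without pericytes or smooth muscle cells were the alternatives. All 10 genes are named in each comparison of groups and of CD24. Of the 42 other factors, up to 4 past the threshold with the largest difference are, except where one is not reported here, and for each gene the 3 most alike. Coordinates and promoters are RefSeq's (GRCm38.p6, the same assembly as mm10).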

Additional observations from a re-analysis of the deposited data

Results flagged for a closer look

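For 8 differences between marker groups the 2 mice had opposite signs, and whether the mice differ was not tested. None of the 8 passed the threshold in the edgeR fit of all 7 groups in both mice, but Dlx5 in stromal cells (-0.29) and Runx3 in fibrochondrocyte or joint lining cells (-1.02) did in the fit without pericytes or smooth muscle cells. Against the mean of the other groups, Dlx5 in stromal cells had a log2 difference of -0.030 (young mouse) and 0.24 (old mouse), Runx1 in early osteoblasts -0.038 and 0.26, and Scx in osteoblasts -0.24 and 0.48. Runx3 in fibrochondrocyte or joint lining cells was at -0.43 and 0.90, from 19 and 34 UMIs and against a mean that holds the group without any Runx3 UMI, Ebf3 in fibroblasts at -0.48 and 0.26, and Foxc1 in pericytes or smooth muscle cells at -0.16 and 0.54. Between the osteoblast and the early osteoblast group Runx3 was at 0.14 and -0.015 and Ebf3 at 0.56 and -0.53, the latter with 102 and 42 UMIs in osteoblasts.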

How the results depend on the processing

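With every cell thinned to 2000 UMIs fewer genes were called in all contrasts between mesenchymal groups, 4473 (6742 with all UMIs) for stromal cells, 1271 (2398) for early osteoblasts, 1874 (4480) for osteoblasts, 1289 (2423) for fibrochondrocyte or joint lining cells, 2566 (3953) for fibroblasts, 968 (1862) for tendon cells, 1935 (3518) for pericytes or smooth muscle cells and 1183 (2768) between the osteoblast groups. In the same setting Runx3 in blood turned to -0.10. Leaving the pericyte or smooth muscle group out turned Dlx5 in stromal cells to -0.29, Sox9 in osteoblasts to -0.48 and Runx3 in fibrochondrocyte or joint lining cells to -1.02, where 5 of the 10 factors then passed; adding the chondrocytes turned Sox9 in osteoblasts to -0.47. These follow from which groups enter the mean of the others. For CD24, 1947 genes were called, but 1028 by DESeq2 (10 factors), 190 without the mouse block (0 factors) and 372 in the osteoblast groups only (1 factor, Scx, while Foxc1 turned to 0.057). With all UMIs 68.5% of the pairs, against 38.1%, had an odds ratio above 1 in both mice. Without the block, 14 calls of the 10 factors were lost over all contrasts, 10 of them for CD24 and 4 elsewhere; the pairing is by animal. With 1 mouse left out no test is possible, and 95 differences (young mouse alone) and 97 (old mouse alone) moved by less than the spread between the mice, with 5 and 3 that moved by more. The other alternatives left each count of calls within 1.5 times.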

Other observations

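Within the erythroid marker group Runx3 differed with the antibody, a split chosen after its values were seen and given without a test. Runx3 was at 66.2 CPM in 173 CD24- cells and 32.3 CPM in 386 CD24+ cells of the young mouse, and at 76.9 CPM in 68 and 24.2 CPM in 389 cells of the old mouse. The CD24- cells also had more Myb, a progenitor factor (665 against 273 CPM young, 616 against 213 CPM old), and more Gata2 (107 against 36.0 and 115 against 31.5 CPM). They had less Slc4a1, the red cell anion exchanger (4.63 against 135 and 41.1 against 359 CPM). Runx1 differed less, 57.5 against 47.0 and 53.4 against 37.8 CPM.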
